A study of Mus musculus with 2 samples.

Results

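The genes described here encode the SR proteins, the hnRNP proteins and the core proteins of the spliceosomal snRNPs. Members were all genes of type protein_coding in GENCODE M21 whose symbol starts with Srsf, Hnrnp, Snrp, Sf3a or Sf3b. There were 52 such genes among the 21461 nuclear protein-coding genes listed in both tables: 11 SR genes, 20 hnRNP genes, 12 genes of Sm and U snRNP proteins, and 9 genes of the SF3A and SF3B complexes (SF3). Total RNA had been sequenced from G1E-ER4, an immortalized male mouse erythroid line labelled C57BL/6J; its cells have no working Gata1 of their own and were given back a GATA1 that acts when estradiol is present. All cells had received 10 nM 17β-estradiol for 24 h, which starts their erythroid differentiation. The series holds this 1 group with 2 biological replicates, so no change with treatment could be measured, and no p-value is given.

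SR proteins bind short elements in exons through RNA recognition motifs and recruit the splicing machinery through domains rich in arginine and serine. hnRNP proteins coat nascent transcripts and often act against exon inclusion. The Sm proteins form a ring around the snRNAs of the spliceosome, and SF3A and SF3B belong to the U2 snRNP, which recognises the branch point of the intron. Many SR and hnRNP genes are known to limit their own protein by splicing their RNA into forms with a premature stop, which nonsense-mediated decay (NMD) destroys, or into forms that keep an intron. Transcript types were therefore described beside the gene levels.

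The libraries held 50277914 and 47478888 expected counts, of which 226414 in replicate 1 and 218819 in replicate 2 fell on members. Loci related to ribosomal RNA (Gm42418, Gm26917, mt-Rnr1 and mt-Rnr2) took 67.2% of the counts in replicate 1 and 66.3% in replicate 2. TPM, the number of transcripts in a fixed total and so a level per length, is lowered by those RNAs for every gene, and a TPM over nuclear protein-coding genes alone would be 4.41 and 4.37 times higher. The erythroid markers Klf1, with 24.8 and 29.0 TPM, and Alas2, with 10.8 and 10.6 TPM, reached 1 TPM in both replicates. None of the 4 myeloid, 4 lymphoid, 4 endothelial and stromal or 4 neuronal markers did, and their summed levels were at most 2.02 TPM in any list. Of 4 megakaryocyte markers, 3 reached it, with summed levels of 29.9 and 22.2 TPM; their part in the results was not tested.

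The sequences that carry the NMD forms are given first. Over all member transcripts these forms held a small part of the TPM, 4.41%. M21 annotates 28 NMD transcripts of 19 members that are listed in the tables. In 11 of these, from 8 genes, the stop codon lies in an exon that no coding transcript of the gene overlaps. For those with the highest mean TPM, the lines below give the annotated coding bases of that exon up to the stop (capitals). The bases are in the sense direction, from the M21 transcript sequences on mm10. They show how soon the frame closes once the extra exon is included.
Srsf3-201: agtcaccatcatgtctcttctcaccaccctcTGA
Sf3b1-208: gcttctattctgctgctTGA
Srsf4-203: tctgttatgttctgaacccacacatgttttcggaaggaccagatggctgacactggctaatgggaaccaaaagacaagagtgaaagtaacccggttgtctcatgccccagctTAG
Hnrnpl-213: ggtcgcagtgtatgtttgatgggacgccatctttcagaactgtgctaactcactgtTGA
Hnrnpll-203: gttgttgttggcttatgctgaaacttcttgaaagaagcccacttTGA
The Srsf3 bases lie at chr17:29039454-29039487 on the plus strand, in exon 4 of 7, and the stop was 548 nt before the last exon junction. The M21 model of Srsf3-201 is 2594 nt long, against 1919 nt listed in the deposited table, so its ends differ from the model that was quantified. The Sf3b1 bases lie at chr1:55014905-55014924 on the minus strand, and those of Srsf4 at chr4:131884276-131884390 on the plus strand. The Hnrnpl bases lie at chr7:28817335-28817393 on the plus strand, and those of Hnrnpll at chr17:80044976-80045022 on the minus strand.

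In 9 other NMD transcripts, from 6 genes, the stop was shared with a transcript typed as coding. Srsf2, Hnrnpd and Srsf6 held the highest levels of this kind, so their stop exons are shown up to the stop.
Srsf2-204: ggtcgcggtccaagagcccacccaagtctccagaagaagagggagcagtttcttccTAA
Hnrnpd-204: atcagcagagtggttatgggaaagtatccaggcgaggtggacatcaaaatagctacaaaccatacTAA
Srsf6-201: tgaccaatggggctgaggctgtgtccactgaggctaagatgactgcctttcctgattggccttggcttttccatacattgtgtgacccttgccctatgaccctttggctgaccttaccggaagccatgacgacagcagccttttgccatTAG
The Srsf2 bases, at chr11:116852028-116852086 on the minus strand, end at the stop that both coding transcripts of the gene use, and the last junction lies 113 nt beyond it. The Hnrnpd bases, at chr5:99962545-99962612 on the minus strand, end at the stop of 4 of the 6 coding transcripts in M21, with the last junction 137 nt beyond it. In these transcripts of Srsf2 and Hnrnpd the exon junctions therefore follow the ordinary stop. The Srsf6 bases, at chr2:162932815-162932966 on the plus strand, run over 152 nt, and 1 of 2 transcripts typed as coding ends at the same stop. The remaining 8 NMD transcripts, from 7 genes, stop inside an exon that overlaps a coding transcript's exon at a stop of their own. These included Hnrnpk-203, whose stop exon reads catactgagtatcagtgcTGA up to its stop at chr13:58396879-58396899 on the minus strand.

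Nearly all of the splicing proteins were expressed. Both replicates reached 1 TPM for 51 of 52 members (98.1%), and for 40.2% of all nuclear protein-coding genes. Members had a median of 42.6 TPM, against 9.76 TPM for the 8620 nuclear protein-coding genes that passed that threshold. Together the members held 1.57% ± 0.0219 of all nuclear protein-coding TPM (SD, n = 2), and 27 of them stood among the 1000 highest nuclear protein-coding genes. In bulk RNA, fewer cells that express a gene and less RNA per cell cannot be told apart.

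The highest member in TPM was an hnRNP gene, but the median of the hnRNP family was close to the 74.3 TPM of the SR genes. Hnrnpk (chromosome 13, 58391142 to 58403343), whose protein binds C-rich RNA through KH domains, had 342 TPM in replicate 1 and 340.05 TPM in replicate 2. Hnrnpa3, a member of the A/B group, had 170.2 and 178 TPM. Hnrnpab (chromosome 11, 51600100 to 51606847) had 169.8 and 148 TPM, and Hnrnpf (chromosome 6, 117900324 to 117925622), which binds G-rich runs, had 146 and 172 TPM. The last of these pairs overlapped: Hnrnpab was above Hnrnpf in replicate 1 and below it in replicate 2. Over the 20 hnRNP genes the median was 74.4 TPM and the mean levels ran from 3.91 to 341 TPM. The lowest were Hnrnph3, with 3.69 and 4.12 TPM from 124 and 148 counts, and Hnrnpul2, with 12.9 and 11.6 TPM. Both replicates of Hnrnph3 lay below both replicates of every other hnRNP gene.

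Most of the close relatives compared stood apart in TPM, but for some pairs the order or the gap depended on the transcripts counted. The order did so for Hnrnph2 and Hnrnph1 and for Srsf7 and Srsf3, and the gap for Srsf5 and Srsf6. Coding TPM below is the part of a gene's TPM in transcripts typed protein_coding. Hnrnph2, on the X chromosome, had 0.235 ± 0.00110 of the TPM of Hnrnph1, but 1.45 ± 0.0941 times its coding TPM (SD, n = 2). Hnrnpll, a relative of Hnrnpl known for regulating CD45 exons in lymphocytes, had 0.167 ± 0.00490 of the TPM of Hnrnpl, and 0.121 ± 0.00620 of its coding TPM. Hnrnpul2 had 0.161 ± 0.00750 of the TPM of Hnrnpul1. Hnrnpa1 and Hnrnpa2b1 lay closer, with a ratio of 0.878 in replicate 1 and 0.924 in replicate 2. Srsf5 had 1.99 and 2.27 times the TPM of Srsf6 in replicates 1 and 2, but 0.981 and 1.04 times its coding TPM.

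Among the SR genes, Srsf2 (chromosome 11, 116849901 to 116853094) led with 266 and 286 TPM. The median of the 11 genes was 74.3 TPM. Srsf5 with 110.01 and 123 TPM and Srsf11 with 115 and 111 TPM followed, and their replicates overlapped. Srsf1, the founding member of the family, had 75.8 and 80.1 TPM, and Srsf3, its smallest protein, 72.9 and 75.7 TPM. Srsf7, whose protein is close to that of Srsf3, had 0.703 ± 0.0134 of the TPM of Srsf3, but 1.55 ± 0.0194 times its coding TPM (SD, n = 2). At the low end, Srsf9 had 20.1 and 13.1 TPM and Srsf4 had 13.0 and 12.8 TPM. Srsf12 (chromosome 4, 33208991 to 33233340) had no count in either library, which allows up to 0.0515 TPM in replicate 1 and 0.0543 TPM in replicate 2 at a floor of 3 counts per library.

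In total TPM, though not in coding TPM, the Sm and U snRNP genes lay closer together than the other families. Their median was lower, at 26.5 TPM, and their mean levels ran from 16.4 to 75.1 TPM. Snrpa, the A protein of the U1 snRNP, was highest with 71.4 and 78.7 TPM, and it had 3.01 ± 0.0423 times the TPM and 4.04 ± 0.490 times the coding TPM of Snrpb2, a paralog in the U2 snRNP (SD, n = 2). Among the 7 genes of the Sm ring, the highest had 4.73 times the TPM of the lowest in replicate 1 and 3.80 times in replicate 2. Averaged over replicates the highest was Snrpe, with 69.9 TPM, and the lowest was Snrpf, with 16.4 TPM. Snrpe had 79.0 TPM in replicate 1 and 60.8 TPM in replicate 2, and Snrpf had 16.7 and 16.0 TPM. In coding TPM the lowest was instead Snrpd3, with 2.83 in replicate 1 and 3.58 in replicate 2, and Snrpe had 27.1 and 16.5 times as much. The other ring members Snrpb, Snrpd1, Snrpd2, Snrpd3 and Snrpg had mean levels of 18.8 to 42.9 TPM.

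Snrpb encodes the SmB proteins of the ring, and Snrpn, known as an imprinted gene expressed in neurons, encodes their relative SmN. Snrpn had 18.3 and 20.7 TPM, and Snrpb had 32.7 and 33.3 TPM. Snrpn thus stood at 0.591 ± 0.0448 of Snrpb in TPM and at 0.645 ± 0.0489 in coding TPM (SD, n = 2), and their values did not overlap. Before division by length they did overlap, with 1093 and 1174 expected counts for Snrpn and 1135 and 1055 for Snrpb. The neuronal markers Snap25 and Rbfox3 had no count, and Tubb3 and Syt1 had at most 0.16 TPM. Snurf, which shares its transcript with Snrpn, was listed separately with 20.5 TPM in replicate 1 and 9.91 TPM in replicate 2. A stretch of 216 nt is identical in both, so the split between them is uncertain.

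Within SF3, Sf3b1 (chromosome 1, 54985169 to 55027481), the large scaffold of the complex, was highest with 162 and 170 TPM, of which 72.6 and 74.0 TPM were coding. The next subunit, Sf3b3, had 53.4 and 56.7 TPM. Sf3b4 had 44.1 and 44.3 TPM, Sf3b2 had 32.9 and 32.8 TPM, and Sf3b6, which touches the branch point, had 14.6 and 15.1 TPM. Sf3b5 was lowest with 4.13 and 3.17 TPM, from 507 and 369 counts over a listed length of 3841 nt. Sf3b6 had 479 and 470 counts over 1115 nt. The low TPM of Sf3b5, and the SF3B ratios that follow, thus depend on its listed length. The highest SF3B gene had 39.1 times the TPM of the lowest in replicate 1 and 53.5 times in replicate 2, or 17.6 and 23.3 times in coding TPM. For the 3 SF3A genes the ratio of highest to lowest was 1.35 ± 0.124 in TPM and 1.55 ± 0.152 in coding TPM (SD, n = 2).

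**Figure D1:**
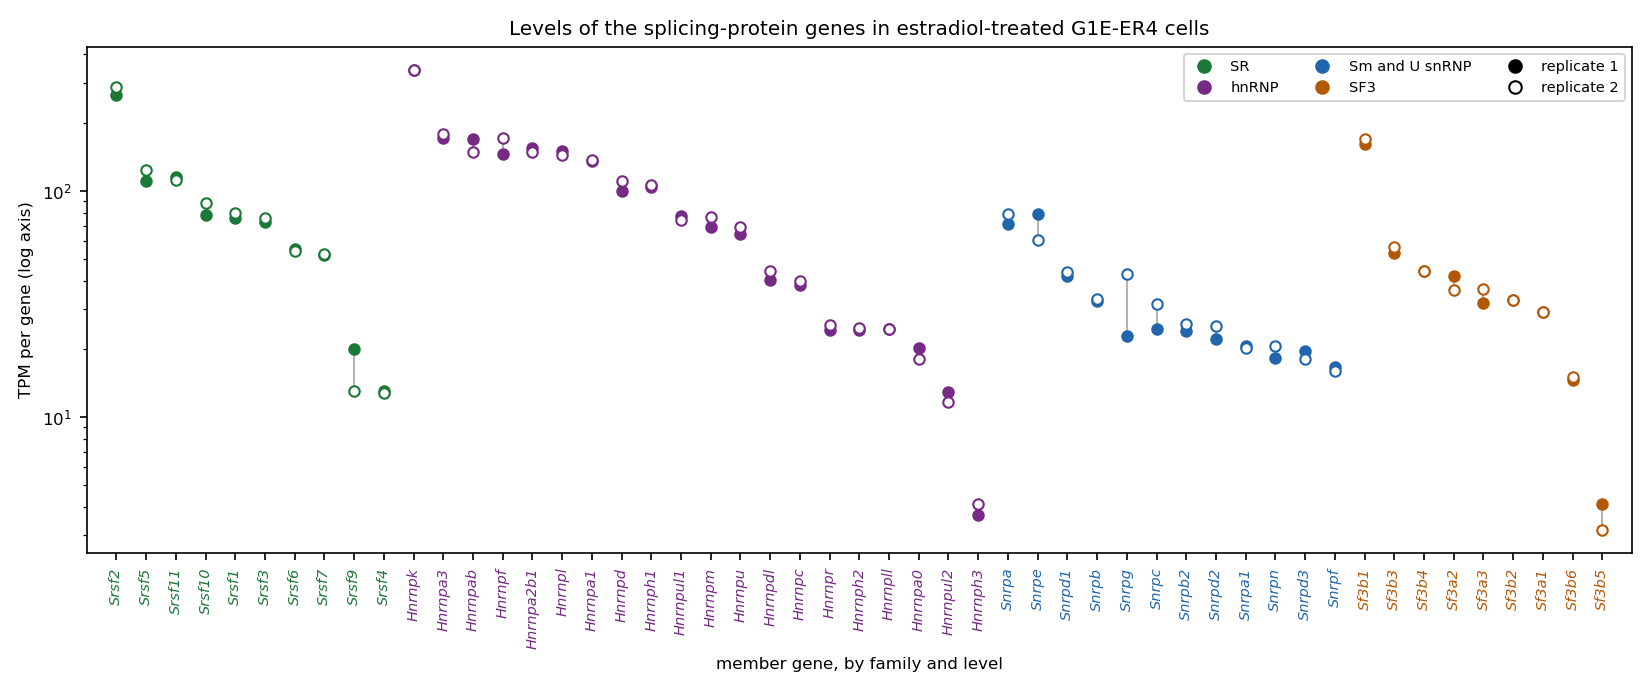
TPM of each expressed member (log axis), by family in order of mean level; filled points are replicate 1 and open points replicate 2, joined by a grey line. Srsf12, with no counts, is not drawn. Hnrnpk tops the plot at 342 and 340.05 TPM, and the widest gaps between replicates are those of Snrpg and Srsf9.

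The replicates held the members at similar levels. The TPM of 2 of 51 members (3.92%) lay 1.5-fold or more apart, beside 7.98% of the nuclear protein-coding genes with a mean of 1 TPM or more. Snrpg was the 1 member higher in replicate 2 (4.42% of all such genes) and Srsf9 the 1 member higher in replicate 1 (3.56%). Snrpg stood at 22.8 TPM in replicate 1 and 42.7 TPM in replicate 2, and Srsf9 at 20.1 and 13.1 TPM. On the log2 scale of replicate 2 over replicate 1, with a pseudocount of 0.1 TPM, the ratios were 0.90 for Snrpg and -0.62 for Srsf9. The next largest were those of Snrpe at -0.38 and Sf3b5 at -0.37.

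Counting error was set beside these ratios with the exact 95% interval of the count ratio, scaled by each library's nuclear protein-coding total. The interval excluded equality for 20 of 51 members (39.2%), beside 45.8% of the nuclear protein-coding genes with a mean of 100 counts or more. Snrpg was again widest, with a log2 count ratio of 0.86 (0.58 to 1.13) from 174 and 304 counts. Srsf9 came to -0.45 (-0.64 to -0.25) by counts, inside 1.5-fold. Its short transcript Srsf9-202, a processed_transcript of 474 nt, had 6.91 TPM in replicate 1 and 1.98 TPM in replicate 2, while the coding Srsf9-201 had 13.2 and 10.7 TPM. Of the members past the interval, 9 were higher in replicate 2 and 11 in replicate 1.

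**Figure D2:**
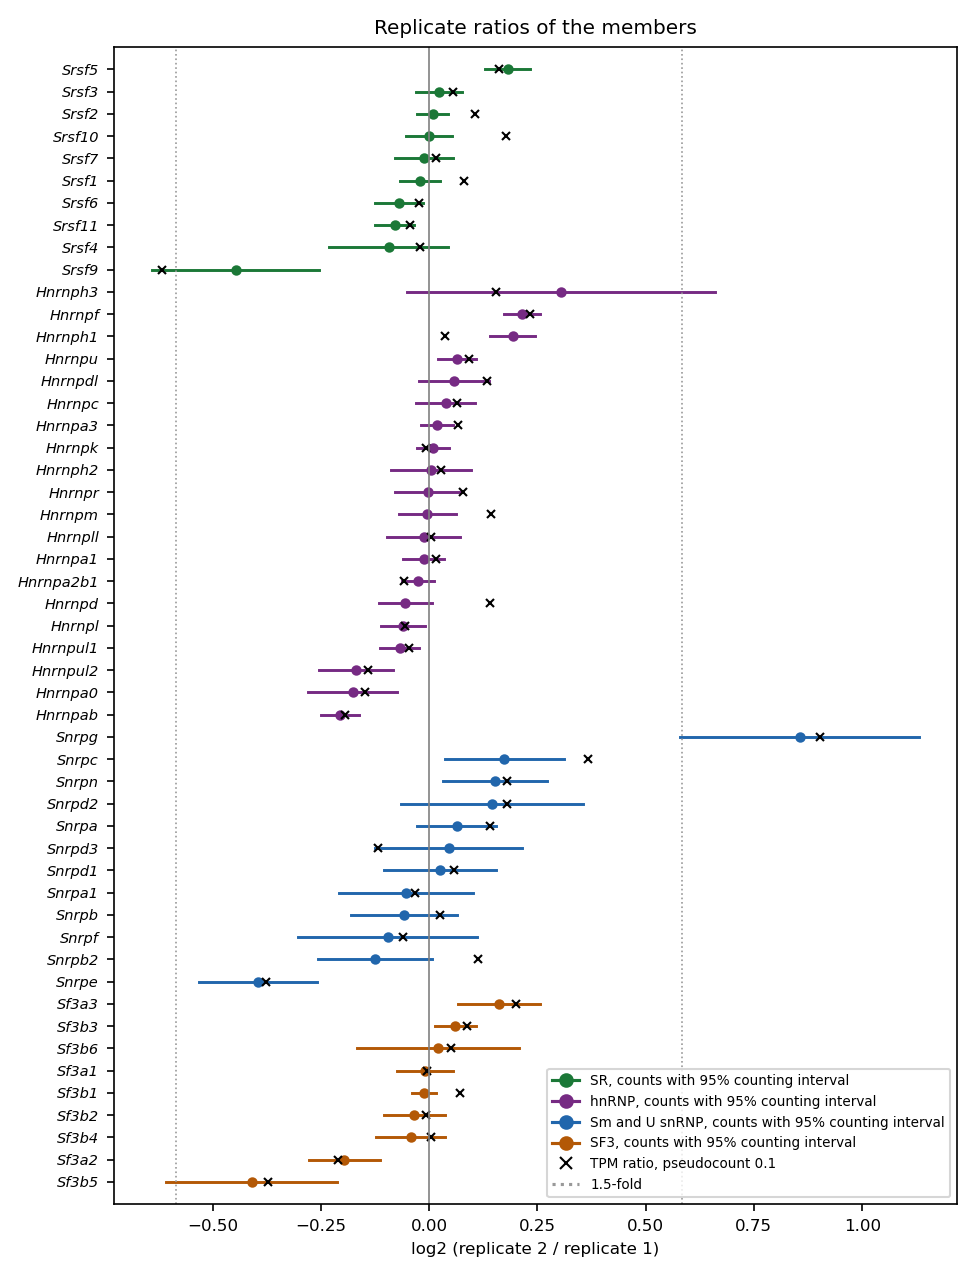
Log2 ratio of replicate 2 over replicate 1 for the 51 members with counts, by family; points are count ratios with their exact 95% counting intervals, crosses are TPM ratios with a pseudocount of 0.1, and dotted lines mark 1.5-fold. Snrpg lies farthest right and Srsf9 farthest left.

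Some members share sequence with other genes, which bears on these values. The leading coding transcript of 31 of 52 members matched a transcript of another gene at 95% identity or more over at least 100 nt. For 17 of them a matching gene reached 1 TPM in a replicate. The pseudogene Gm8186 is identical to Snrpg over 231 nt and was listed at 38.2 TPM in replicate 1 and 36.4 TPM in replicate 2. Summed, the pair had 61.0 TPM in replicate 1 and 79.2 TPM in replicate 2, a ratio of 1.30. Snrpf matched the pseudogene Gm13092 over 258 nt, which was listed at 22.2 and 15.0 TPM beside 16.7 and 16.0 TPM for Snrpf. Hnrnpa1 matched Gm10052 over 960 nt at full identity, and Gm10052 had 18.7 and 20.7 TPM. Hnrnpa3 matched 36 other genes, of which 6 reached 1 TPM in a replicate, with the longest match over 714 nt of the pseudogene Gm11847. Snrpe matched the pseudogene Snrpert over 279 nt, which had 12.5 and 11.2 TPM. For Snrpg, Snrpf, Hnrnpa1, Hnrnpa3 and Snrpe, among others, the split of reads between gene and copy is uncertain. On the opposite strand, Srsf2 overlaps Mettl23 over 460 nt (18.1 and 13.6 TPM), and Sf3a2 overlaps Plekhj1 over 429 nt (15.3 and 14.4 TPM); whether counting used the strand is not given in the sources used here.

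Transcript types were then set beside the levels. The coding share is the part of a gene's TPM that lies in transcripts typed protein_coding in M21, and it was computed for the 51 members with a mean of 100 counts or more. Over all member transcripts together, 70.8% ± 0.842 of the TPM was coding, 18.4% ± 0.0968 lay in retained_intron transcripts, 6.06% ± 0.403 in processed_transcript transcripts, which are annotated without an open reading frame, and 4.41% ± 0.247 in NMD transcripts (SD, n = 2). By expected counts the coding part was higher, at 81.8% ± 0.538. Coding transcripts of members had a median length of 1917 nt and retained_intron transcripts of 823 nt, and TPM divides by length. In total RNA, RNA not yet spliced and finished RNA that keeps an intron cannot be told apart from these shares.

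The families differed in coding share. The median was 58.3% for the SR genes, 86.2% for the hnRNP genes, 96.4% for the Sm and U snRNP genes and 98.9% for SF3. The 51 members together had a median of 87.0%, and the 8285 nuclear protein-coding genes past the same count had 92.5%. Counted by reads, the same medians were 73.4% for SR, 95.8% for hnRNP, 94.4% for Sm and U snRNP and 99.8% for SF3, with 97.5% for all nuclear protein-coding genes. Over all genes past the count the SR family was lowest in both units, and no test of these family medians was made.

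A gene with no non-coding transcript in the annotation is at or near 100% by construction. At least 1 non-coding transcript was listed for 32 of 51 members (62.7%), beside 61.3% of all nuclear protein-coding genes past the count. It was listed for 9 of 10 SR genes, 11 of 20 hnRNP genes, 7 of 12 Sm and U snRNP genes and 5 of 9 SF3 genes. Among genes with such a transcript the median coding share was 60.0% for members and 74.2% for all nuclear protein-coding genes. By family it was 56.8% for SR, 53.5% for hnRNP, 61.4% for Sm and U snRNP and 94.4% for SF3. Among these genes the hnRNP median thus lay below that of SR in TPM. By counts the SR median was the lower, at 68.6% against 71.5% for hnRNP. The highest share, 100% in both replicates, was tied among 19 members, among them Hnrnpab, Hnrnpf and Hnrnpa2b1.

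**Figure D3:**
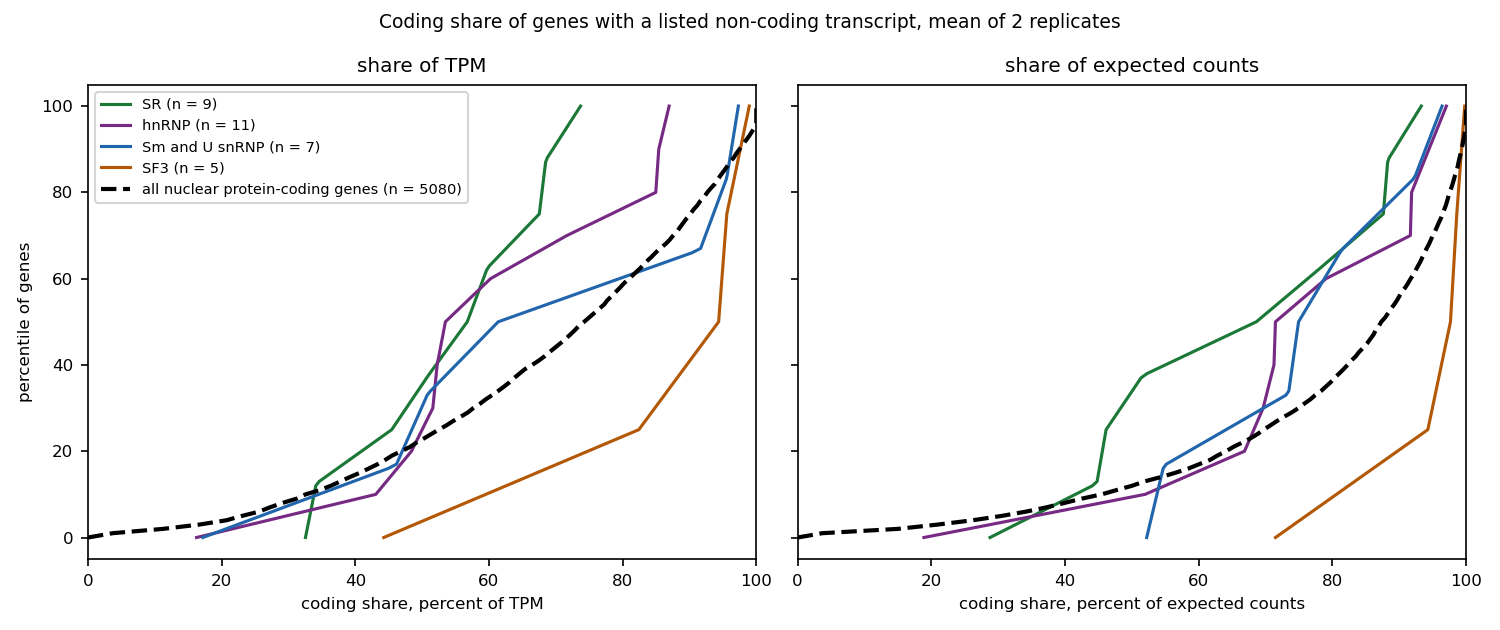
Cumulative coding share (x, percent of TPM at left and of expected counts at right; y, percentile of genes) for genes with a listed non-coding transcript and a mean of 100 counts or more, mean of both replicates. The SR, hnRNP and Sm and U snRNP curves cross 50% of genes left of the dashed curve of all nuclear protein-coding genes in both panels, and the SF3 curve crosses it to the right.

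A coding share under 50% of TPM was found for 9 of 51 members (17.6%), beside 14.7% of all nuclear protein-coding genes. Among genes with a listed non-coding transcript it was 9 of 32 members (28.1%), beside 22.8%. By expected counts it was 4 of 51 members (7.84%), beside 7.89%. Those 4 were Hnrnph1, Srsf3, Srsf5 and Srsf11. The other 5 under 50% of TPM, but not of counts, were Hnrnpk, Hnrnpu, Sf3b1, Snrpb2 and Snrpd3.

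Hnrnph1, whose protein binds G-rich sequences, had the lowest mean share; Snrpd3 was lower in replicate 1, so the pair overlapped. The coding transcripts of Hnrnph1 held 15.6% of TPM in replicate 1 and 16.9% in replicate 2. Counted by reads they held 19.4% and 18.4%. The rest lay in transcripts typed processed_transcript, led by Hnrnph1-205 of 4577 nt with 17.0 and 20.2 TPM. Snrpd3, the SmD3 protein of the ring, had 14.5% and 19.9% of TPM in its 1 coding transcript, and the retained_intron transcript Snrpd3-202 of 665 nt held the rest. By counts its coding share was 47.4% and 57.0%.

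Among SR genes, Srsf5 had a coding share of 33.8% in replicate 1 and 31.3% in replicate 2, and by counts 30.4% and 27.1%. Its leading transcript was Srsf5-212, typed retained_intron, with 32.6 and 38.9 TPM. Srsf11 had 35.6% and 32.7%, and its retained_intron transcripts held 63.4% and 65.7% of TPM. In Srsf3 the coding transcript held 46.5% and 44.4%, the NMD transcript Srsf3-201 shown above 23.3% and 26.3%, and retained_intron transcripts 30.3% and 29.3%. In Srsf11 and Srsf3 both replicates gave the same order of transcript types. In Srsf5 the 3 types lay close together in TPM, and their order differed between replicates. By counts the order in Srsf5 was the same in both. Retained_intron transcripts held 54.6% and 59.3% of counts, above the coding share, and processed_transcript transcripts held 15.0% and 13.5%.

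Hnrnpk and Sf3b1, which were high in total TPM, were lower in coding TPM. Hnrnpk had a coding share of 39.8% and 46.3% of TPM, against 69.6% and 73.4% of counts. Its leading transcript, Hnrnpk-215, is a retained_intron form of 522 nt with 114 and 105 TPM. Sf3b1 had a coding share of 44.9% and 43.6% of TPM, and 71.2% and 71.8% of counts. In coding TPM alone Hnrnpk stood at 147 ± 15.2 and was at rank 6 among the members, behind Hnrnpab at 159 ± 15.1, Hnrnpf at 159 ± 18.2, Srsf2 at 156 ± 5.07, Hnrnpa3 at 151 ± 1.41 and Hnrnpa2b1 at 151 ± 4.28 (SD, n = 2). These 6 overlap within their SDs. Sf3b1 stood at 73.3 ± 0.989 coding TPM, at rank 10 among the members.

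The NMD transcripts shown above took a measurable part of several SR genes. An NMD share of 5% of TPM or more was found for 8 of 51 members (15.7%), beside 11.9% of all nuclear protein-coding genes. It was found for 4 of 10 SR genes, namely Srsf2, Srsf3, Srsf4 and Srsf6, and also for Hnrnpd, Hnrnpdl, Snrpa1 and Sf3b1. Srsf6-201 held 17.0% of the gene's TPM in replicate 1 and 19.7% in replicate 2, and Srsf2-204 held 14.2% and 15.1%. Srsf4-203 held 12.9% and 12.7% of a low gene, with 1.68 and 1.63 TPM. By counts these shares were smaller, at 8.76% and 10.3% for Srsf6-201, 4.74% and 5.23% for Srsf2-204, and 4.42% and 4.47% for Srsf4-203.

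Sf3b1-208 held 14.8% and 16.1% of the TPM of Sf3b1, with 23.9 and 27.4 TPM, but 1.85% and 2.09% of its counts, since it is listed at 600 nt beside 6195 nt for the coding Sf3b1-201. The 2 highest NMD forms of Hnrnpd both end at the ordinary stop. Hnrnpd-204 held 11.4% of the gene's TPM in replicate 1 and 11.5% in replicate 2, and Hnrnpd-208 held 9.32% and 13.1%. Snrpa1-201, an NMD form of a U2 snRNP gene, differed between replicates, with 44.6% of the gene's TPM in replicate 1 and 21.9% in replicate 2. Hnrnpl-213 had 6.53 TPM in replicate 1 and 0.21 TPM in replicate 2. For these last 2 the replicates lay more than 2-fold apart. The same held for Hnrnpdl-205, an NMD form of Hnrnpdl, with 2.17 TPM in replicate 1 and 6.41 TPM in replicate 2.

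Retained_intron transcripts held 10% or more of TPM in 22 of 51 members (43.1%), beside 30.4% of all nuclear protein-coding genes. This applied to 7 of 10 SR genes, 9 of 20 hnRNP genes, 4 of 12 Sm and U snRNP genes and 2 of 9 SF3 genes. These calls are in TPM, and the shares depended on the unit. Over all member transcripts retained_intron transcripts held 12.8% ± 0.148 of counts (SD, n = 2), less than of TPM. Members crossed 10% in both directions. Hnrnpu had 40.5% and 41.9% of TPM but 5.92% and 6.42% of counts in replicates 1 and 2. Snrpc had 5.50% and 3.35% of TPM but 31.5% and 21.6% of counts. The leading transcript was not coding in either replicate for 6 of 51 members (11.8%), beside 8.67%. They were Hnrnpk, Srsf5, Hnrnph1, Snrpa, Snrpd3 and Hnrnph3. The leading transcript was the same in both replicates for 48 of 51 members, and the exceptions were Hnrnpr, Snrpb2 and Snrpa1. The coding share moved by a median of 1.33 percentage points between replicates over the 51 members, and by 1.48 over all nuclear protein-coding genes.

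**Figure D4:**
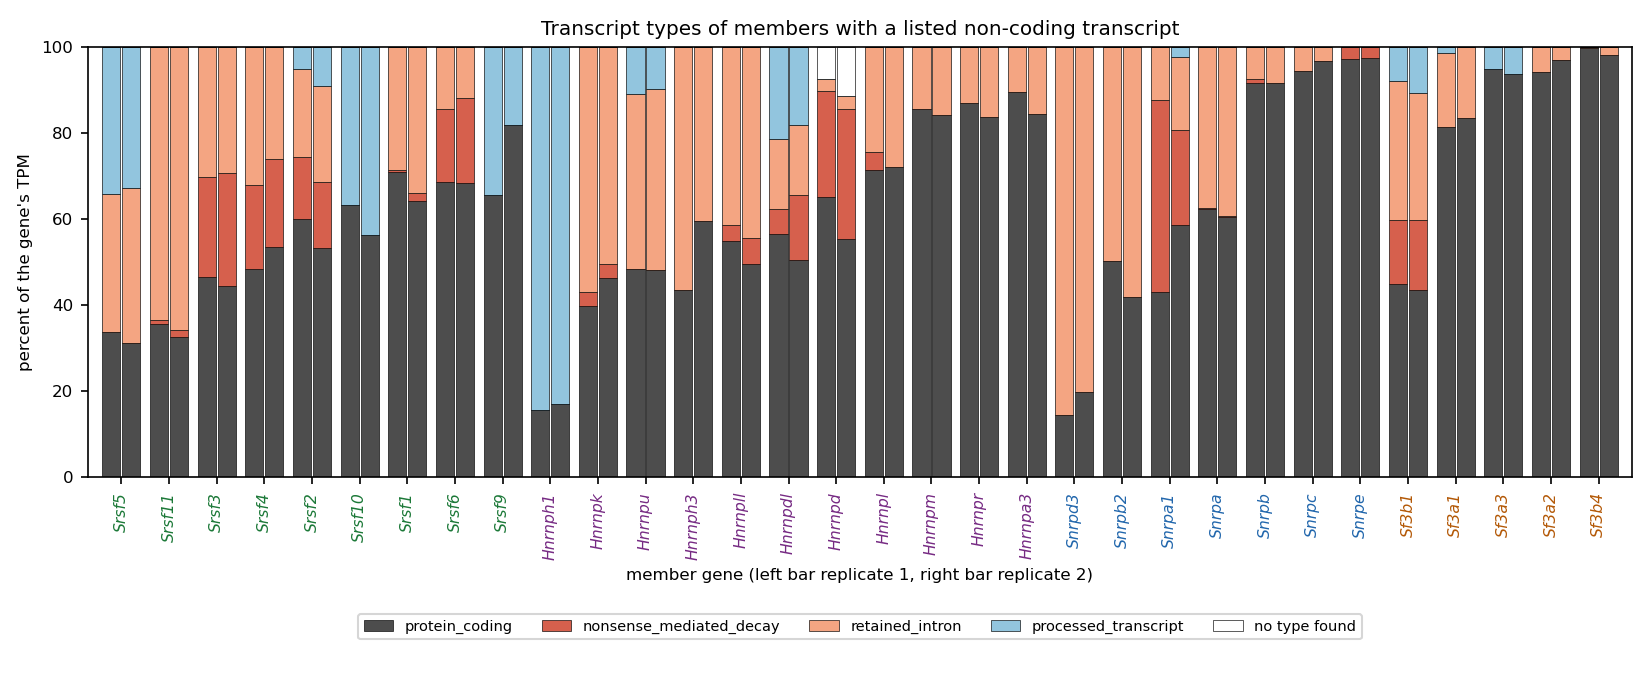
Share of each gene's TPM by M21 transcript type for the 32 members with a listed non-coding transcript; the left bar of each pair is replicate 1 and the right bar replicate 2, and label colours give the family. Hnrnph1 and Snrpd3 have the shortest dark coding segments, and the red NMD segments are widest in Snrpa1, Hnrnpd and Srsf3.

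Other genes of the pathway were described from lists by role. SR-related proteins had the highest median, 69.7 TPM, and all 16 were detected. They were led by Srrm2, a large scaffold of nuclear speckles, with 303 and 308 TPM, and Rbm25 with 207 and 235 TPM, and the lowest were Srek1 with 15.0 and 14.4 TPM and Rnps1 with 11.9 and 10.9 TPM. Their median coding share of TPM was 59.0%, close to the 58.3% of the SR genes, and 5 of 16 lay under 50%, beside 14.7% of all nuclear protein-coding genes. The kinases that phosphorylate SR proteins and their importer had a median of 34.3 TPM, with 8 of 9 detected, 57.1% as the median coding share and 4 of 8 under 50%, beside the same 14.7%. In the other lists the genes under 50% were 1 of 16 for U1, U5 and the tri-snRNP, 2 of 7 for the minor spliceosome, 1 of 7 for LSm proteins, 0 of 11 for the 3′ splice site partners, 3 of 23 for other hnRNP and tissue regulators, 0 of 14 for snRNP assembly, and 1 of 14 for the exon junction complex and NMD. Among the kinases and their importer, Clk1 was highest with 74.9 and 84.2 TPM, of which 19.2% was coding. The importer Tnpo3 followed with 46.7 and 43.7 TPM. Srpk2 had 8.49 and 8.91 TPM, and the muscle-associated Srpk3 had no count.

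The partners that read the 3′ splice site with SF3 were detected in 11 of 11 cases, with a median of 30.6 TPM. The branch-point binder Sf1 had 121 and 123 TPM and the helicase Dhx15 had 56.5 and 60.2 TPM, while Ddx42 had 20.3 and 17.6 TPM and U2af1 had 19.3 and 15.8 TPM. The 16 proteins of U1, U5 and the tri-snRNP were all detected, with a median of 20.7 TPM. The U5 scaffold Prpf8 led with 108 and 113 TPM, followed by Snu13 with 64.4 and 71.1 TPM, and Prpf4 with 6.71 and 6.60 TPM and Sart1 with 5.16 and 4.48 TPM were lowest. Proteins of the minor spliceosome, which removes rare introns, had the lowest median, 8.99 TPM, with 9 of 9 detected. They ran down from Zcrb1 at 24.5 and 21.9 TPM and Rnpc3 at 16.7 and 14.3 TPM to Zrsr1 at 1.72 and 1.67 TPM and Snrnp35 at 1.20 and 1.29 TPM.

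LSm proteins, relatives of the Sm ring that bind U6, had a median of 13.8 TPM with 8 of 8 detected. Lsm2 had 78.5 and 59.9 TPM and Lsm4 22.5 and 25.6 TPM, and the lowest were Lsm5 with 6.70 and 8.01 TPM and Lsm1, of the cytoplasmic ring, with 2.84 and 2.87 TPM. The factors that assemble snRNPs had a median of 13.9 TPM with 14 of 15 detected, led by Strap with 30.1 and 38.6 TPM and Smn1 with 32.3 and 25.1 TPM. Gemin6 had 2.70 and 4.58 TPM, and Coil, the Cajal body protein, had 0.98 and 1.38 TPM. The exon junction complex and NMD factors had a median of 10.8 TPM with 14 of 15 detected. Whether they act on the NMD forms above was not tested. Magoh had 78.2 and 69.9 TPM and Eif4a3 had 46.2 and 55.1 TPM, while Upf3a had 2.91 and 4.44 TPM and Magohb had no count.

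Other hnRNP-like and tissue splicing regulators had a median of 30.5 TPM with 22 of 25 detected. Mbnl1, a regulator of erythroid and muscle splicing, had 211 and 228 TPM, and the poly(C) binder Pcbp2 had 130.4 and 136 TPM. The neuronal and muscle regulator Rbfox1 and the epithelial regulator Esrp1 had no count.

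**Figure D5:**
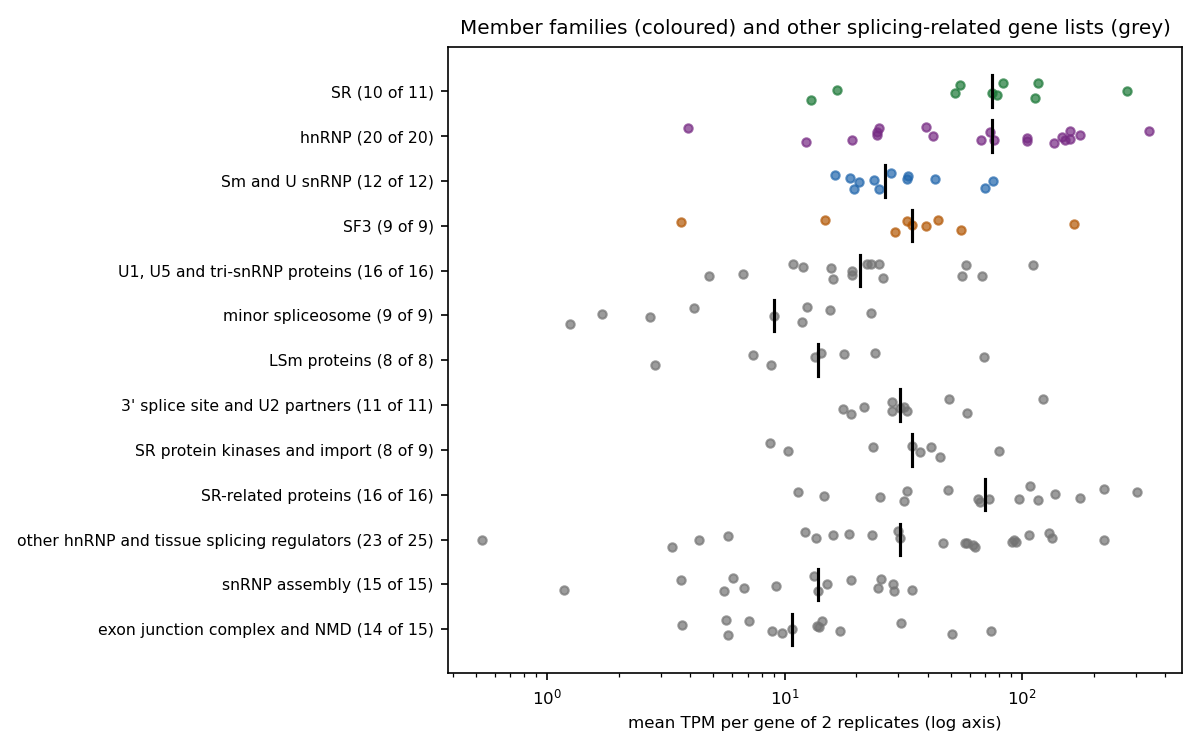
Mean TPM of both replicates (log axis) for the genes of the 4 member families (coloured, top rows) and of 9 other splicing-related lists (grey); each point is a gene, black bars are medians over all genes of the row, and the row labels give how many genes had a TPM above 0. The SR and hnRNP rows have medians of 74.3 and 74.4 TPM, and the minor spliceosome row has the lowest median, 8.99 TPM.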

How the data were processed

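Total RNA of 2 libraries, labelled biological replicates 1 and 2, was analysed from deposited gene and transcript tables. They were made on mm10, per the labels, with GENCODE M4, per the deposited documentation. The version of the quantifier, the aligner and any trimming were not given in the sources used. Expected counts, as deposited, are estimated reads with no normalization. The TPM values deposited by the authors are normalized so that all listed features sum to a constant. The FPKM values deposited by the authors were used as an alternative. The percent of a gene's TPM per transcript was also deposited by the authors, and shares here were recomputed from TPM. The posterior SD of the count, deposited by the authors, was read as a score of uncertainty.

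Genes and transcripts were named and typed from GENCODE M21 (mm10) by identifier without version, which matched 42462 of 43346 Ensembl genes. Because types come from M21 and levels from M4 models, 244 of 273 typed member transcripts had the same length in both. Mean ± SD covers n = 2. Ratios used a pseudocount of 0.1 TPM, which understates low genes, at a mean of 1 TPM or more. Count ratios have exact conditional binomial (Clopper-Pearson) 95% intervals. Reads carry no molecular identifiers, so intervals and floors (3 counts) cover counting error only. Alternatives changed thresholds, pseudocount, unit, scaling (TMM, edgeR 4.0.16 in R 4.3.3, on expected counts rounded to whole numbers), coding definition and filters, and left out each replicate. Sequence matches used BLAST+ 2.17.0 on M21 transcripts. Other steps ran in Python 3.11.15 with scipy 1.17.1, numpy 2.4.6 and pandas 2.3.3, and plots used matplotlib 3.10.9. The interval and share steps were tested on simulated data. Every member could be named; those with the highest and lowest levels and shares and the largest replicate ratios are given in full, and of each other list the 2 highest and 2 lowest. Transcripts with NMD forms, gene pairs and copies named beyond that were chosen after their values were seen. The members and lists were chosen with earlier results of these data known.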

Additional observations from a re-analysis of the deposited data

How the results depend on the processing

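With 1 group there was no test to lose, so the alternatives only move values. No paired analysis was possible because the series holds a single group. The number of members detected stayed between 49 and 51 at TPM thresholds of 0.5 and 5, on rescaled TPM, FPKM and posterior mean TPM, and in each replicate alone. The median of 42.6 TPM became 187 on TPM rescaled over nuclear protein-coding genes and 28.0 in FPKM, and lay between 42.0 and 44.0 with either replicate left out. The count of members 1.5-fold apart was 1 in place of 2 on expected counts scaled by the protein-coding total or by TMM. The median log2 ratio of members, 0.04, became -0.01 on those 2 count scales, so it has no stable sign.

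The coding share depended on the unit. By expected counts the members' median was 94.3%, and 4 members in place of 9 lay under 50%; with only genes that list a non-coding transcript the median was 60.0%. With either replicate left out the members' median lay between 84.4% and 89.5%, and 10 to 11 members lay under 50%. For all nuclear protein-coding genes the median of 92.5% became 97.5% by counts, 94.7% with NMD transcripts counted as coding, 89.9% on posterior mean TPM (chosen after seeing the data), and 74.2% with only genes that list a non-coding transcript, and lay between 92.8% and 94.5% with either replicate left out. By counts the family medians of coding share were 73.4% for SR, 95.8% for hnRNP and 94.4% for Sm and U snRNP genes. In expected counts, which are not per length, the median levels were 5614 for SR, 5175 for hnRNP, 888 for Sm and U snRNP and 2528 for SF3 genes.

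Depth limits the members with few counts most: Hnrnph3 rests on 124 and 148 counts, and Snrpg, listed at 350 nt, on 174 and 304. Short transcripts weigh more in TPM than in counts, and transcripts of a gene share reads, so each transcript's level is an estimate. With 2 libraries an SD is itself imprecise.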
